A study of Drosophila melanogaster with 6 samples.

Results

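The regions described here are all peaks of the chromatin proteins ROW and BEAF-32 that were mapped to chromosome 4 in S2 cells, a Drosophila melanogaster line derived from embryos and resembling blood cells. They were chosen by the chromosome column of both peak lists and by no measured value. There were 213 such peaks among 13569 in all, with 137 out of the 8788 for ROW and 76 out of the 4781 for BEAF-32. ROW was immunoprecipitated in 3 samples and BEAF-32 in 3 samples, and 1 peak list was deposited per antibody for its 3 samples. The labels give no treatment or genotype, only a tag, con, that all 6 titles share and that they do not explain. The peaks on the large arms 2L, 3L and 3R, 5115 for ROW and 2767 for BEAF-32, served as the comparison.

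Chromosome 4 is the small dot chromosome of the fly. Much of its gene-bearing part carries heterochromatin marks, among them methylated histone H3 lysine 9 and the heterochromatin protein HP1a, and yet many of its genes are expressed. ROW has zinc fingers and an AT hook and is found in a complex with HP1c, a relative of HP1a that sits mostly in euchromatin. BEAF-32, an insulator protein, recognises clustered short motifs and is often found near start sites of active genes. The label heterochromatin-like was not checked here, because the lists hold no measure of chromatin marks.

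Each peak carries a fold enrichment, which is the signal at its summit over the local background, and a −log10 p. Both follow from the same pair of unknowns in a Poisson model, the pileup (the number of fragments that overlap the summit) and the local background, so both could be solved for. With a pseudocount of 1 the recovered pileup was whole, within 0.05, for 100% of the 8788 ROW peaks and 100% of the 4781 BEAF-32 peaks. The lists hold no value for single samples, so no spread between samples exists and no test between chromosomes was made. Brackets give 95% intervals over peaks, Wilson intervals for shares, order-statistic intervals for medians and exact binomial intervals for ratios of peaks per Mb. They cover counting error only, and neighbouring peaks are not independent. The scales of the 2 antibodies were not set against each other. Coordinates are on dm3, counted from 1. Genes at the peaks and their sequence were not analysed here.

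The mapped stretch of chromosome 4 was taken between its outermost peaks, 1.24 Mb from 62315 to 1306987. Sequence before and after it held no peak and was not counted. Within it, no pair of neighbouring summits lay more than 52132 bp apart. ROW peaks began at 62315, and the first BEAF-32 peak, from 64101 to 64725, was also the second strongest of its list on the chromosome. The last BEAF-32 peak lay from 1275922 to 1276587, and the last ROW peak, from 1306610 to 1306987, had its nearest BEAF-32 summit 30583 bp away. In the 12 whole bins of 100 kb after the first, ROW had 6 to 14 summits per bin and BEAF-32 1 to 9. The bin from 700 to 800 kb was the poorest for both, with 6 ROW summits and 1 BEAF-32 summit.

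**Figure D1:**
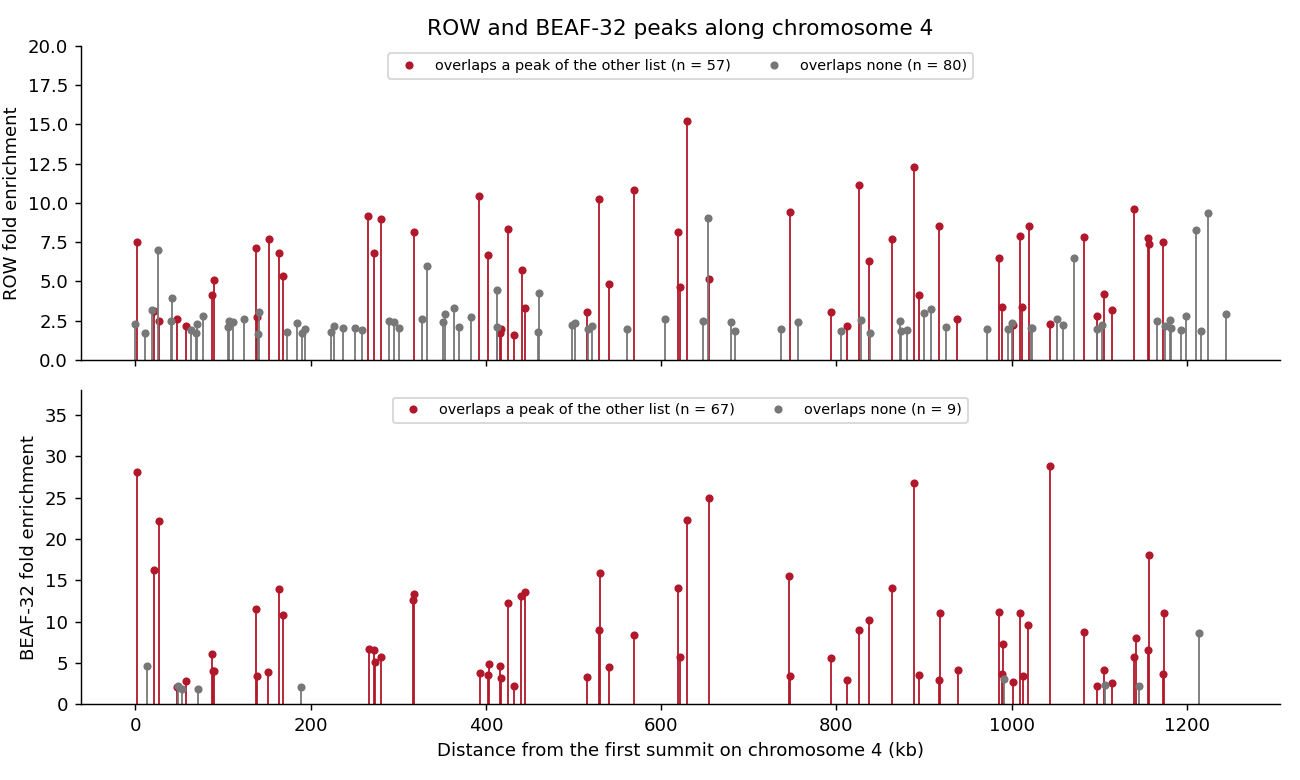
Fold enrichment of each ROW peak (top) and BEAF-32 peak (bottom) against the distance of its summit from the first summit on chromosome 4, in kb. Red stems mark peaks that overlap a peak of the other list (57 ROW and 67 BEAF-32 peaks) and grey stems those that overlap none (80 and 9); low grey ROW stems fill the stretches between tall red ones.

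The longest of these distances, counted between summits of either list, ran from 747047 to 799179, between a pair of ROW summits. The next were 38140 bp, from 522601 to 560741, and 36838 bp, from 818848 to 855686. The longest, the 1 distance above 50 kb, took up 4.19% of the chromosome 4 span. On 2L, 3L and 3R together 304 distances above 50 kb took up 39.9% of the span, and the longest was 462133 bp. The BEAF-32 list alone left at most 90763 bp on chromosome 4, from 717521 to 808284. When the large arms were divided into 59 consecutive windows of the length spanned on chromosome 4, the longest distance within a window was 52378 bp or more in each of the 59. The lowest of these was close to the 52132 bp of chromosome 4. Sequence before the first peak was not counted, and on chromosome 4 that peak starts only at 62315, so the uncounted sequence is longer than this distance.

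**Figure D2:**
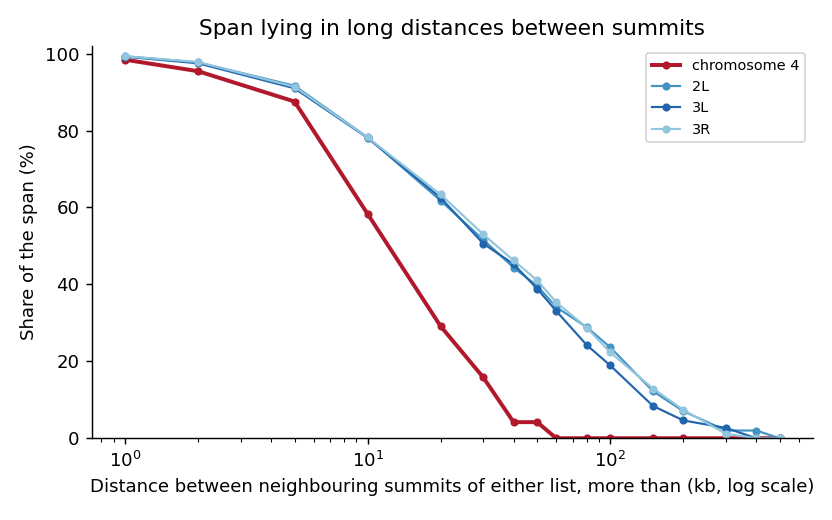
Share of each chromosome's span, in percent, that lies in distances between neighbouring summits of either list above the length on the x axis (kb, log scale). At 20 kb chromosome 4 is at 29.1%, and 2L, 3L and 3R are at 61.8%, 62.5% and 63.4%.

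Peaks were more frequent per Mb on chromosome 4 than on the large arms. ROW had 110.1 peaks per Mb on chromosome 4 and 67.9 per Mb on 2L, 3L and 3R, a ratio of 1.62 (1.36 to 1.92). BEAF-32 had 61.1 per Mb on chromosome 4 and 36.7 per Mb on the arms, a ratio of 1.66 (1.31 to 2.09). Of the 59 windows, 2 held at least as many ROW peaks and 2 at least as many BEAF-32 peaks as chromosome 4. Counting only occupied sequence leaves out empty bins by construction, so it compares peaks within occupied bins and not the excess over the span. A peak of either list touched 78.4% of the 10 kb bins of chromosome 4 and 45.8% of those of the arms, and per Mb of such bins the ratios were 0.94 (ROW) and 0.97 (BEAF-32). With a floor of 10 on −log10 q, the ROW ratio was 1.13 (0.89 to 1.42). That floor was passed by 54.7% of ROW peaks on chromosome 4, 78.7% on the arms and 77.8% over the whole list. The BEAF-32 ratio with this floor was 1.59 (1.22 to 2.04). Of BEAF-32 peaks 82.9% passed on chromosome 4, 86.6% on the arms and 86.2% over the whole list.

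The median distance between neighbouring ROW summits was 7460 bp on chromosome 4 (6679 to 8620) and 6521.5 bp on the arms. For BEAF-32 it was 8599 bp on chromosome 4 (6414 to 12745) and 9681.5 bp on the arms. ROW summits were thus farther apart at the median on chromosome 4 than on the arms together, but its interval spans the 2L median, 6714 bp. Measured between the edges of neighbouring ROW peaks, the median was 6476.5 bp on chromosome 4 (5509 to 7647) and 5766 bp on the arms, within that interval. For BEAF-32 the interval between summits on chromosome 4 also spans the value on the arms. Close BEAF-32 neighbours were more frequent on chromosome 4. Of 75 neighbouring BEAF-32 pairs there, 17 had summits less than 2 kb apart, which is 22.7% (14.7 to 33.3), and the share on the arms was 7.85% (6.91 to 8.91).

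Most ROW peaks on chromosome 4 were weak. Median fold enrichment was 2.59 on chromosome 4 (2.44 to 3.06) and 4.12 on 2L, 3L and 3R (4.02 to 4.24), with a range of 1.59 to 15.2 on chromosome 4. Peaks below 2-fold made up 21.9% of the ROW peaks of chromosome 4 and 7.35% of those of the arms. At least 4-fold was reached by 46 ROW peaks, 33.6% of those on chromosome 4 (26.2 to 41.8), against 51.5% on the arms and 50.3% over the whole list. The 3 lowest were at 1.59-fold, 1.65-fold and 1.70-fold. Of the 59 windows, 2 had a median ROW fold enrichment at or below that of chromosome 4. Both were the last whole window of their arm, from 21166035 to 22410707 on 2L (2.49-fold over 138 ROW peaks) and from 22446052 to 23690724 on 3L (2.54-fold over 113).

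The low ROW values went with few fragments, while the local background was close to that of the arms. Median pileup at the ROW summits was 83 fragments on chromosome 4 (71 to 112) and 143 on the arms (137 to 150). Median local background was 31.5 fragments on chromosome 4 (26.5 to 36.8) and 29.9 on the arms (29.3 to 30.5). The pileups of chromosome 4 were split, with 76 ROW peaks under 100 fragments, 23 from 100 to 300 and 38 of 300 and more. These bands were chosen after the values were seen. They held 55.5%, 16.8% and 27.7% of the ROW peaks of chromosome 4, against 37.8%, 32.6% and 29.5% of those on the arms. The upper quartile was 355 fragments on chromosome 4 and 360.5 on the arms.

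**Figure D3:**
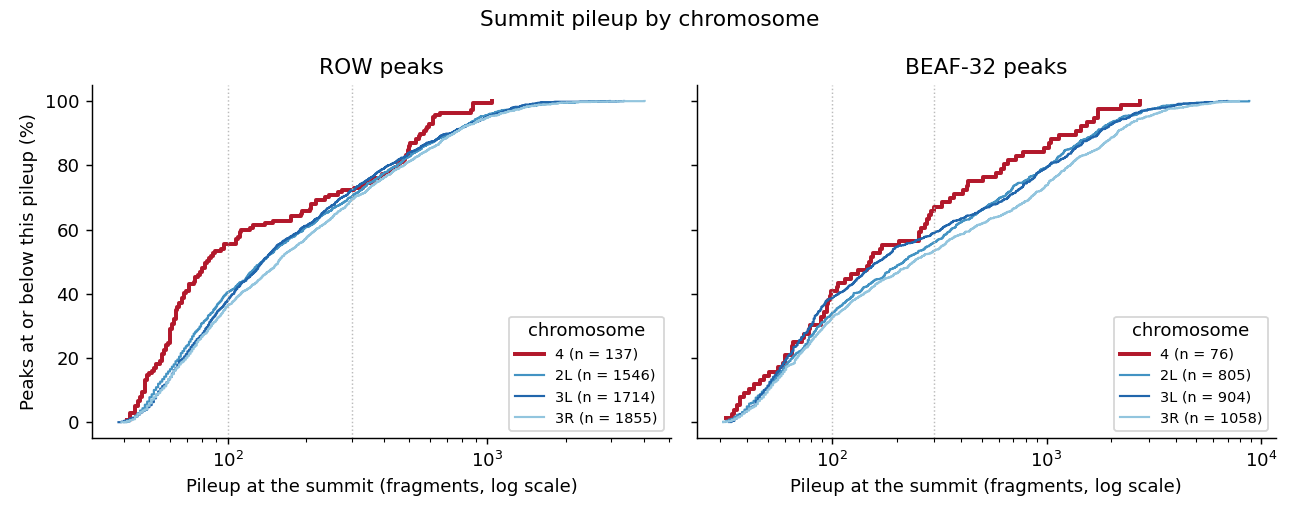
Cumulative share of peaks, in percent, by pileup at the summit (fragments, log scale) for ROW (left) and BEAF-32 (right) on chromosome 4 and on 2L, 3L and 3R. Dotted lines mark 100 and 300 fragments; 55.5% of ROW peaks on chromosome 4 lie under 100 fragments, and the ROW curves meet near 300.

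The top ROW peak of chromosome 4, from 690976 to 692021, had 15.2-fold enrichment, 530 fragments at its summit and a local background of 33.9 fragments. It ranked 500 in the ROW list, and 2 of the 1000 strongest ROW peaks were on chromosome 4, which holds 137 of all 8788. Among the 59 windows of like length the top ROW peak ranged from 14.4-fold to 28.3-fold, and in 4 of them it was no higher than on chromosome 4. The second, from 951107 to 952126, had 12.3-fold enrichment and 658 fragments. The third, from 887235 to 888320, had 11.1-fold enrichment and 883 fragments over a background of 78.4. The other 7 of the 10 strongest ranged from 9.19-fold to 10.8-fold. Among ROW peaks of at least 300 fragments, the median fold enrichment was 7.69 on chromosome 4 (6.82 to 8.33) and 11.0 on the arms (10.7 to 11.3). The median local background of these peaks was 71.4 fragments on chromosome 4 (59.5 to 81.6) and 57.4 on the arms (55.1 to 60.5).

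Strong ROW peaks on chromosome 4 were broad. Of all ROW peaks there, 40 were at least 1000 bp wide, which is 29.2%, against 12.0% on the arms and 13.1% over the whole list. None of the 59 windows had so high a share, the highest being 28.0%. The median width was 733 bp on chromosome 4 (587 to 784) and 575 bp on the arms (565 to 585). By pileup, the difference was clear only in the top band, and in both lower bands the interval on chromosome 4 spans the value on the arms. Under 100 fragments the median widths were 507.5 bp on chromosome 4 (409 to 569) and 422 bp on the arms. From 100 to 300 fragments they were 743 bp on chromosome 4 (494 to 986) and 580 bp on the arms. At 300 fragments and more they were 1328 bp on chromosome 4 (1086 to 1449) and 696 bp on the arms (684 to 711). In that band 29 of 38 ROW peaks on chromosome 4 reached 1000 bp, 76.3% (60.8 to 87.0), against 19.3% on the arms (17.3 to 21.3). The highest share in any of the 59 windows, 68.2% of 22 peaks, was that of the last whole window of 2L. The widest ROW peak of the chromosome ran from 464439 to 466907, over 2469 bp, with 862 fragments at its summit and 6.66-fold enrichment. The next widest, from 708154 to 710432, was weak, with 78 fragments, 2.45-fold enrichment and no BEAF-32 peak. The one from 334399 to 336524, 2126 bp wide, had 618 fragments. Of the 10 strongest ROW peaks, 9 were at least 1000 bp wide, and the exception, from 1286013 to 1286455, was 443 bp wide.

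**Figure D4:**
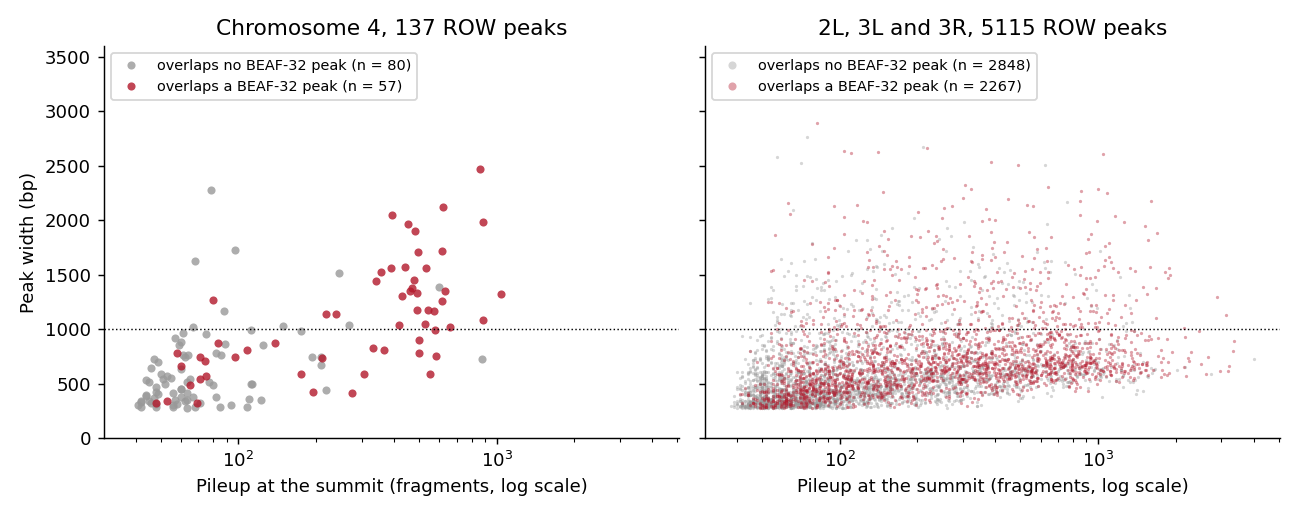
Width (bp) against pileup at the summit (fragments, log scale) of ROW peaks on chromosome 4 (left, 137 peaks) and on 2L, 3L and 3R (right, 5115 peaks), red where a BEAF-32 peak overlaps and grey where none does. The dotted line marks 1000 bp, above which lie 29 of the 38 chromosome 4 peaks with at least 300 fragments.

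BEAF-32 peaks on chromosome 4 were about as wide at the median as those on the arms, and the strong ones had lower fold enrichment than strong ones on the arms. The median width was 584.5 bp on chromosome 4 (528 to 640) and 565 bp on the arms (557 to 571), and 6 of the 76 peaks, 7.89%, reached 1000 bp, against 4.95% on the arms and 5.61% over the whole list. The median fold enrichment was 5.70 on chromosome 4 (4.11 to 8.79) and 7.42 on the arms (6.92 to 8.05). The interval on chromosome 4 spans the value on the arms. At least 4-fold was reached by 49 BEAF-32 peaks, 64.5% of those on chromosome 4, against 72.2% on the arms and 71.7% over the whole list. Among peaks of 300 fragments and more, 25 on chromosome 4 and 1218 on the arms, the median was 13.6-fold on chromosome 4 (11.5 to 16.2) and 19.8-fold on the arms (19.2 to 20.3). The median local background of those peaks was 59.1 fragments on chromosome 4 and 57.6 on the arms, and their median pileup was 773 fragments on chromosome 4 and 1030.5 on the arms.

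The top BEAF-32 peak of chromosome 4 was no stronger than that of most arm windows of like length. It lay from 1105239 to 1105867, had 28.8-fold enrichment with 1730 fragments and ranked 155 in the BEAF-32 list. Among the 59 windows the top BEAF-32 peak ranged from 24.4-fold to 33.5-fold, and in 45 it was at least as high. Of the 1000 strongest BEAF-32 peaks, 6 were on chromosome 4, which holds 76 of all 4781. The peak at the start of the mapped stretch, from 64101 to 64725, had 28.1-fold enrichment and the most fragments of the 10 strongest, 2741. The peak from 951098 to 951967 had 26.8-fold enrichment and 1441 fragments. The other 7 of the 10 strongest ranged from 15.6-fold to 24.9-fold. All 10 overlapped a ROW peak, and 6 of the 10 had a ROW summit within 100 bp. Over the whole BEAF-32 list these shares were 81.4% and 47%. Of the BEAF-32 peaks of at least 6-fold on the arms, 86.7% overlapped a ROW peak. The widest BEAF-32 peaks, 1196 bp from 335262 to 336457, 1177 bp from 1143867 to 1145043 and 1106 bp from 465724 to 466829, were of moderate strength, between 4.93-fold and 8.79-fold.

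On chromosome 4, nearly all ROW peaks of 300 fragments and more overlapped a BEAF-32 peak by at least 1 bp, and most of those under 100 fragments overlapped none. By this definition 57 of all 137 ROW peaks were shared, 41.6% (33.7 to 49.98), against 44.3% on the arms and 43.6% over the whole list. Where the overlap had to take up 50% or more of both intervals, 25.5% were shared on chromosome 4 and 36.2% on the arms, a difference of −10.7 percentage points (−17.4 to −2.69). At 300 fragments and more, 36 of 38 ROW peaks on chromosome 4 overlapped BEAF-32, 94.7% (82.7 to 98.5), against 65.1% on the arms (62.7 to 67.5). From 100 to 300 fragments 8 of 23 were shared on chromosome 4, 34.8% (18.8 to 55.1), against 45.9% on the arms (43.5 to 48.3). Under 100 fragments the share was 17.1% on chromosome 4 (10.3 to 27.1), against 26.8% on the arms (24.8 to 28.8). In bands of fold enrichment, chromosome 4 was above the arms in the upper and the middle band and below them in the lowest. At 6-fold and more 29 of 34 ROW peaks were shared on chromosome 4, 85.3% (69.9 to 93.6), against 64.1% on the arms (61.8 to 66.2). From 3-fold to 6-fold it was 16 of 24 on chromosome 4, 66.7% (46.7 to 82.0), against 42.6% on the arms (40.2 to 45.0). Under 3-fold the share was 15.2% on chromosome 4 (8.91 to 24.7) and 24.9% on the arms (22.9 to 27.0). In both lower bands of pileup the interval on chromosome 4 spans the value on the arms, while in the middle band of fold enrichment it lies above that value.

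The high share among strong ROW peaks depends in part on what counts as overlap, and strong ROW intervals had a median width of 1328 bp on chromosome 4 and 696 bp on the arms. At 300 fragments and more, 19 of the 38 ROW peaks of chromosome 4 shared 50% or more of both intervals with a BEAF-32 peak, 50% (34.8 to 65.2), against 53.5% on the arms (51.0 to 56.0). A BEAF-32 summit lay within 100 bp for 20 of the 38, 52.6% (37.3 to 67.5), against 32.2% on the arms (29.9 to 34.6). Low median strength, broad strong peaks and a high overlap of those with BEAF-32 also stood together in the last whole windows of 2L and 3L. In that window of 2L, all 22 ROW peaks of 300 fragments and more were shared (100%), 68.2% of them reached 1000 bp, and the median width of its ROW peaks was 693.5 bp. In that of 3L, with 15 such peaks, 86.7% were shared, 46.7% reached 1000 bp, and the median width of all its ROW peaks was 647 bp. The 2L window was the 1 window of the 59 whose share at 300 fragments and more reached that of chromosome 4.

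**Figure D5:**
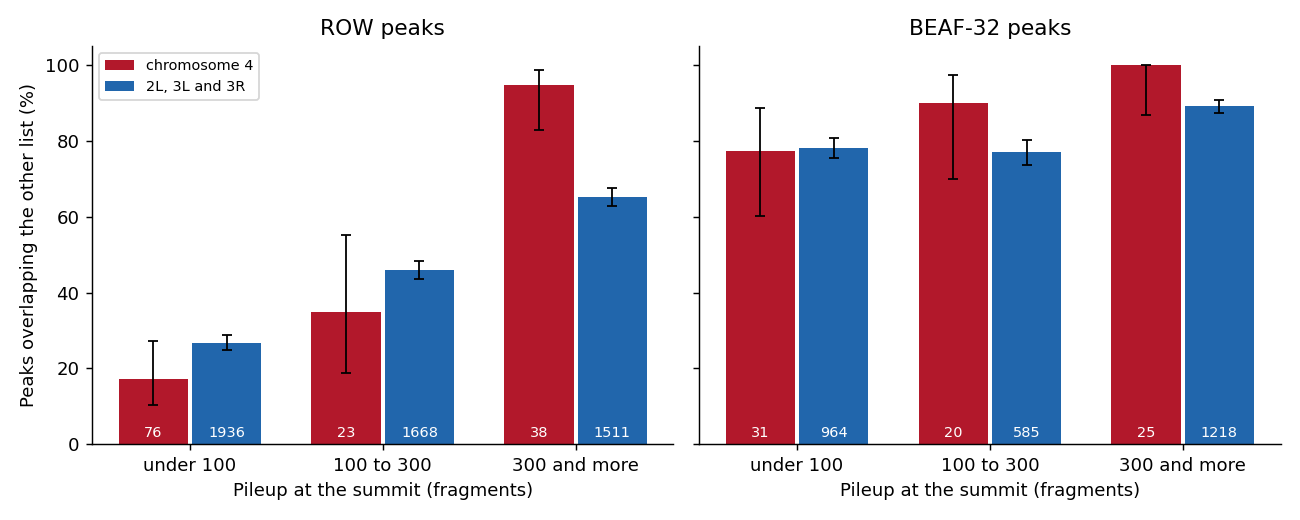
Share of ROW peaks (left) and BEAF-32 peaks (right) that overlap a peak of the other list, in percent, by pileup at the summit, on chromosome 4 (red) and on 2L, 3L and 3R (blue). White numbers give the peaks per bar and error bars are 95% Wilson intervals. ROW on chromosome 4 is above the arms at 300 fragments and more (94.7% and 65.1%). In both lower bands its bar is lower, but its interval spans the value on the arms.

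The shared ROW peaks of chromosome 4 had a median of 6.31-fold enrichment (4.14 to 7.498), 419 fragments and 1046 bp, and the unshared ones 2.28-fold (2.08 to 2.44), 62.5 fragments and 509 bp. On the arms the shared ROW peaks had a median of 6.10-fold enrichment (5.81 to 6.43), 240 fragments and 666 bp, and the unshared ones 3.27-fold (3.18 to 3.36), 100 fragments and 494 bp. In fold enrichment the intervals of the shared peaks overlap between chromosome 4 and the arms, and those of the unshared peaks do not. In pileup neither overlaps, with 276 to 493 fragments for shared peaks on chromosome 4 against 226 to 258 on the arms, and 59 to 68 for unshared ones on chromosome 4 against 96 to 106 on the arms. In width the intervals of the shared peaks are apart, 813 to 1266 bp on chromosome 4 and 656 to 678 bp on the arms, while those of the unshared peaks overlap, 418 to 640 bp on chromosome 4 and 482 to 506 bp on the arms. The strongest unshared ROW peaks included 2 with at least 300 fragments. One, from 715472 to 716201, had 879 fragments, 9.005-fold enrichment and its nearest BEAF-32 summit 1601 bp away. The other, from 87794 to 89178, had 597 fragments, 6.98-fold enrichment and its nearest BEAF-32 summit 1909 bp away. The remaining 3 of the 5 strongest lay from 1286013 to 1286455 (9.35-fold), from 1271491 to 1272529 (8.25-fold) and from 1133717 to 1134464 (6.50-fold), with BEAF-32 summits 10082, 4108 and 10812 bp away.

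Of the 76 BEAF-32 peaks, 67 overlapped a ROW peak, 88.2% (79.0 to 93.6), against 82.8% on the arms (81.3 to 84.1) and 81.4% over the whole list. The direction turned under stricter definitions. Where 50% or more of both intervals had to overlap it was 46.1% on chromosome 4 against 67.0% on the arms, and with summits at most 100 bp apart 40.8% on chromosome 4 against 47.7% on the arms. By the 1 bp definition all 25 BEAF-32 peaks with at least 300 fragments overlapped ROW, 100% (86.7 to 100), against 89.2% on the arms (87.3 to 90.8). At 6-fold and more it was 36 of 37 on chromosome 4, 97.3% (86.2 to 99.5), against 86.7% on the arms (84.9 to 88.3). The 9 BEAF-32 peaks without ROW had a median of 2.21-fold enrichment and 41 fragments. The strongest of them was the last BEAF-32 peak, from 1275922 to 1276587, with 8.57-fold enrichment and a ROW summit 1877 bp away. It was followed by peaks from 75244 to 75679 (4.60-fold), from 1053593 to 1053879 (3.08-fold), from 1168760 to 1169028 (2.34-fold) and from 111379 to 111869 (2.21-fold), all with a ROW summit within 2041 bp.

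Broad ROW peaks that covered a pair of BEAF-32 peaks were frequent on chromosome 4. Of its 57 shared ROW peaks, 10 overlapped 2 BEAF-32 peaks each, 17.5% (9.82 to 29.4). On the arms it was 33 of 2267, 1.46% (1.04 to 2.04), and no window of the 59 held more than 4. The 10 ROW peaks were 1256 to 2469 bp wide and had 388 to 881 fragments, and the BEAF-32 summits beneath each lay 850 to 1938 bp apart. They accounted for 10 of the 17 close BEAF-32 neighbours. In the ROW peak from 379109 to 381006, with 484 fragments, both BEAF-32 peaks were of like strength, at 12.6-fold and 13.4-fold and 1215 bp apart. In the one from 808132 to 809580 they were unequal, at 3.45-fold and 15.6-fold and 955 bp apart. In the one from 591308 to 592563 they were at 8.95-fold and 15.9-fold and 912 bp apart.

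Summits of the 67 overlapping pairs lay a median of 112 bp apart on chromosome 4 (89 to 130), against 84.5 bp for the 2300 pairs on the arms (81 to 88). This count includes both pairs where 1 ROW peak covers 2 BEAF-32 peaks. The direction turned with ROW width. Under ROW peaks of at least 1000 bp the median was 117 bp on chromosome 4 (41 pairs) and 246.5 bp on the arms (414 pairs). Under narrower ones it was 96.5 bp on chromosome 4 (26 pairs) and 75 bp on the arms (1886 pairs). With only the nearest BEAF-32 summit of each shared ROW peak, the median was 96 bp on chromosome 4 (86 to 117) and 84 bp on the arms (80 to 87). Summits within 100 bp were found for 31 of those 57 ROW peaks, 54.4% (41.6 to 66.6), against 58.2% on the arms (56.2 to 60.2). Set against all peaks, these 31 were 22.6% of the ROW peaks of chromosome 4, with 25.6% over the whole list, and 40.8% of its BEAF-32 peaks, with 47% over the whole list. No pair on chromosome 4 had both summits on the same base, the closest being 3 bp apart. The ROW summit had the lower coordinate in 30 pairs and the higher one in 37. ROW was the wider peak in 52 of the 67 pairs, 77.6%, against 62.5% on the arms. In 35 pairs the overlap took up 50% or more of each interval, 52.2%, against 80.6% on the arms.

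The sites that ranked high in both lists were led by the pair of the ROW peak from 951107 to 952126 and the BEAF-32 peak from 951098 to 951967. There ROW had 12.3-fold enrichment and BEAF-32 26.8-fold, with summits 32 bp apart. The next pair joined the strongest ROW peak, from 690976 to 692021 at 15.2-fold, with BEAF-32 from 691049 to 692116 at 22.3-fold, 130 bp apart. The pairs at 591308 to 592563 and at 808132 to 809580 followed, both on ROW peaks that cover a second BEAF-32 peak, with summits 795 and 849 bp apart. At the start of the mapped stretch, ROW from 64156 to 65503 reached 7.498-fold beside BEAF-32 at 28.1-fold, 86 bp apart. The other 5 of the 10 pairs had ROW at 7.36-fold to 11.1-fold, BEAF-32 at 9.02-fold to 18.0-fold and summits 59 to 503 bp apart.

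Joined at distances of up to 5 kb, the 213 summits formed 90 groups, of which 31 were single summits. ROW alone made up 41 groups, both proteins shared 49, and no group was made of BEAF-32 alone. Groups were formed on chromosome 4 only, so the arms give no value to compare. The richest held 10 summits, 5 of each protein, between 1047718 and 1064036, with at most 6.47-fold (ROW) and 11.1-fold (BEAF-32). A group of 6 from 81466 to 89913 held 4 ROW and 2 BEAF-32 summits, up to 22.2-fold for BEAF-32. A group of 6 from 110499 to 120310 held 2 ROW and 4 BEAF-32 summits, none above 2.80-fold.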

How the data were processed

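ChIP-seq peaks of ROW and BEAF-32 in S2 cells were read from 1 deposited list per antibody, without header, in the 10-column narrowPeak layout. Bowtie2, SAMtools, MACS2 and deepTools and the build dm3 are named in the submitters' processing notes, without versions or roles. The control library and the way the 3 samples were combined are not given in the sources used here. Column 7 as deposited was read as a ratio, the fold enrichment of the summit over local background, columns 8 and 9 as deposited as −log10 p and −log10 q, and column 10 as how far the summit lies from the start of its interval. The display score deposited in column 5 repeats column 9 and was not used. Groups follow the sample titles, since the titles name 1 antibody where the antibody entries of the BEAF-32 samples count upwards.

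Pileup and local background were solved from columns 7 and 8 as the values that give both under a Poisson upper tail with a pseudocount of 1, and the pileup was rounded to whole fragments. With no pseudocount 10.9% of ROW and 10.6% of BEAF-32 pileups came out whole. On simulated data the pileup was recovered within the tolerance for 100% of 493 summits. The lowest local background, 22.5 fragments for ROW and 16.4 for BEAF-32, was shared by 35.3% and 36.6% of peaks. Pileup and background rose together across the peaks of chromosome 4 (Spearman's rho 0.83 over 137 ROW peaks and 0.83 over 76 BEAF-32 peaks, as a description). They also did so on the arms, with 0.73 for ROW and 0.83 for BEAF-32. Whether a control library entered the background is not known. Library totals are unknown. Spans were measured between the outermost peaks of the lists, whichever the antibody. Python 3.11.15 with numpy 2.4.6, pandas 2.3.3 and scipy 1.17.1 was used.

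The regions, measures and named peaks were chosen with earlier results of these data known. Named are the 10 strongest peaks of each list on chromosome 4, the 10 pairs with the smallest sum of ranks, the 5 strongest unshared and 3 widest peaks of each list, its first and last peak, the 3 longest stretches without a summit and the 3 groups with the most summits, ties taken by position. ROW peaks that cover 2 BEAF-32 peaks, the weakest peaks, the bands of pileup and the stricter definitions of overlap within them were chosen after the values were seen. Alternatives were floors on −log10 q and fold enrichment, other definitions of overlap, single arms, occupied bins, −log10 q or pileup as strength, and bands of strength.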

Additional observations from a re-analysis of the deposited data

How the results depend on the processing

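No paired analysis was possible because the lists hold no values per sample, and leaving out single samples was not possible for the same reason. Of 78 recalculations of 13 differences between chromosome 4 and the arms, 58 stayed within the interval of the value reported and 9 had the other sign. Per Mb of occupied 10 kb bins the ratios were 0.943 for ROW (0.790 to 1.12) and 0.967 for BEAF-32 (0.760 to 1.21). Empty bins are left out of this measure, and 78.4% of the bins were occupied on chromosome 4 against 45.8% on the arms. Within occupied bins, peaks were thus about as frequent on chromosome 4 as on the arms. The ROW density ratio was 1.13 with −log10 q of at least 10 and 1.06 with at least 4-fold. That of BEAF-32 was 1.59 and 1.48 under those floors. The lower ROW strength, −0.67 in median log2 fold enrichment, was −0.068 and −0.063 under those floors, −0.76 against 3R alone, −0.78 in log2 pileup and −1.80 in log2 of −log10 q. The ROW width difference, 0.35 in log2, was 0.72 and 0.80 under the floors and 0.93 at 300 fragments and more, and that of BEAF-32 was 0.27 from 100 to 300 fragments, against 0.05 over all. ROW spacing was longer by 0.51 in log2 with the floor on −log10 q, against 0.19. It was longer by 0.15 against 2L alone (−0.0075 to 0.36) and by 0.17 between intervals (−0.066 to 0.41), both of which span no difference. The share of ROW peaks that overlap BEAF-32, 2.71 percentage points lower on chromosome 4 (−2.71), was 15.8 points higher with the floor on −log10 q and 28.1 points higher with at least 4-fold, but −10.7 points where at least 50% of each interval had to overlap and −3.18 points with summits at most 100 bp apart. The BEAF-32 share, 5.397 points higher (−3.86 to 11.1), was 11.6 and 18.8 points higher under those floors. It was −6.92 points with summits at most 100 bp apart (−17.4 to 4.47) and −20.95 points under the 50% definition (−31.8 to −9.69). The cause was not tested. Library totals and the control library are unknown, so unequal binding and unequal peak calling on these chromosomes cannot be told apart.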

Other observations

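Where a ROW and a BEAF-32 peak overlapped, their strengths had a higher rank correlation on chromosome 4 than on the large arms. Across the 67 pairs Spearman's rho was 0.43 between ROW and BEAF-32 fold enrichment and 0.49 between their pileups. Across the 2300 pairs on 2L, 3L and 3R these were 0.15 and 0.16, with 0.12 to 0.15 for fold enrichment on single arms. These are descriptions over pairs, of which those under 1 ROW peak share their ROW value, and the difference was not tested.

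For ROW, rho between fold enrichment and width was 0.69 over the 137 peaks of chromosome 4 and 0.55 over the 5115 on the arms. For BEAF-32 the values were 0.64 on chromosome 4 and 0.58 on the arms. Of the 40 ROW peaks of chromosome 4 with at least 1000 bp, 31 overlapped BEAF-32, 77.5% (62.5 to 87.7), against 62.4% on the arms. Of the 97 narrower ones it was 26.8% (19.0 to 36.4), against 41.8% on the arms.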
